A study of Homo sapiens with 6 samples.

Results

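The ATP-binding cassette (ABC) transporters were compared between A375 cells with the highest and the lowest Aldefluor signal. Members were the protein-coding rows of the deposited tables whose symbol is ABC, a letter from A to G and a number. This gave 45 of 57914 genes: 12 in subfamily A, 9 in B, 11 in C, 4 in D, 1 in E, 3 in F and 5 in G. A375 is an established human melanoma cell line. Aldefluor is a dye that aldehyde dehydrogenases turn into a charged fluorescent product held inside the cell. ALDH_High holds the 5% of cells with the most signal and ALDH_Low the 5% with the least, each with 3 libraries numbered 1 to 3. Both groups are this 1 line, grown in DMEM with serum and glutamine and stained and sorted alike; the labels name no other agent. They name no unstained or unsorted group among these 6 libraries, nor do they say whether the libraries come from separate cultures, so p-values measure the spread between these libraries only.

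ABC proteins bind and split ATP in a pair of nucleotide-binding domains. Most use that energy to move lipids, sterols, metabolites or drugs across a membrane, while subfamilies E and F lack membrane domains and act on ribosomes. Several members of subfamilies B, C and G sit in the plasma membrane and pump drugs and dyes out of cells, and the Aldefluor product is itself exported by such pumps, for which reason the assay is usually run in a buffer that contains efflux inhibitors. Whether export of the dye bore on which cells were sorted was not tested.

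Total counts lay between 26692868 and 37830603 per library. In ALDH_High library 1 the second principal component of all genes stood apart, at 49.1 against -22.0 and -32.5 in libraries 2 and 3, so results are also given without it where they change. ALDH1A3, the dehydrogenase in the study's title, had 683, 1149 and 1088 CPM (counts scaled to a fixed library total) in ALDH_High and 345, 420 and 403 CPM in ALDH_Low. The 10 melanocyte lineage markers summed to 691 to 925 CPM in ALDH_High and 211 to 238 CPM in ALDH_Low. Most of this was SOX10, while MLANA and TYR were at 3 counts or fewer in every library, so these pigment markers of the labelled cell type were near 0. MITF, the lineage regulator on the same list, went the other way, at 13.0, 12.1 and 14.0 CPM in ALDH_High and 32.0, 22.8 and 19.2 CPM in ALDH_Low (log2 fold change -0.92, edgeR adjusted p 0.00667). The summed markers of white blood cells were 14.2 to 29.5 CPM in ALDH_High and 58.4 to 69.9 CPM in ALDH_Low. CD68, a lysosomal protein, made up most of this, 3 of the 7 were at 3 counts or fewer in every library, and PTPRC, which all white blood cells express, stayed at or below 0.144 CPM. CD14 was lower in ALDH_High (log2 fold change -1.96, edgeR adjusted p 0.0142). LYZ went the other way, at 6.70, 2.43 and 2.52 CPM in ALDH_High and 1.40, 0.803 and 1.47 CPM in ALDH_Low (log2 fold change 1.65, edgeR adjusted p 0.0240). The summed epithelial markers were 372 to 718 CPM in ALDH_High and 1162 to 1706 CPM in ALDH_Low, nearly all of it KRT18 and KRT8, with EPCAM at most at 0.237 CPM. Fibroblast markers summed to 10.9 to 12.6 and 8.05 to 9.80 CPM, and endothelial markers to 0.710 to 1.58 and 0.827 to 2.28 CPM, in ALDH_High and ALDH_Low. The part of these marker differences in the results below was not tested. In bulk RNA, fewer cells that express a gene and less RNA per cell cannot be told apart.

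Of the 45 members, 32 were expressed highly enough to be tested (edgeR quasi-likelihood test, adjusted over all 17047 genes tested). At an adjusted p below 0.05, 7 of the 32 (21.9%) differed, against 20.6% of all genes tested, so the family as a whole was called about as often as any gene. ABCG2, ABCC3, ABCC2, ABCA3 and ABCB1 were lower in ALDH_High, and ABCA6 and ABCB4 were higher. Over all genes tested, 9.83% were lower and 10.8% higher. The median log2 fold change (ALDH_High over ALDH_Low) of the 32 was 0.0062, with 16 above and 16 below 0, beside -0.013 for all genes tested. The groups did not overlap in 11 of the 32, against 37.8% of all genes tested. Within subfamilies B, C and G, 4 of 16 tested members were lower and 1 was higher. In subfamilies A, D, E and F it was 1 lower and 1 higher of 16, both in A. The 7 tested members of D, E and F had edgeR adjusted p of 0.409 or more. ABCA6 entered the test through its ALDH_High libraries alone, so it could hardly enter without a difference.

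**Figure D1:**
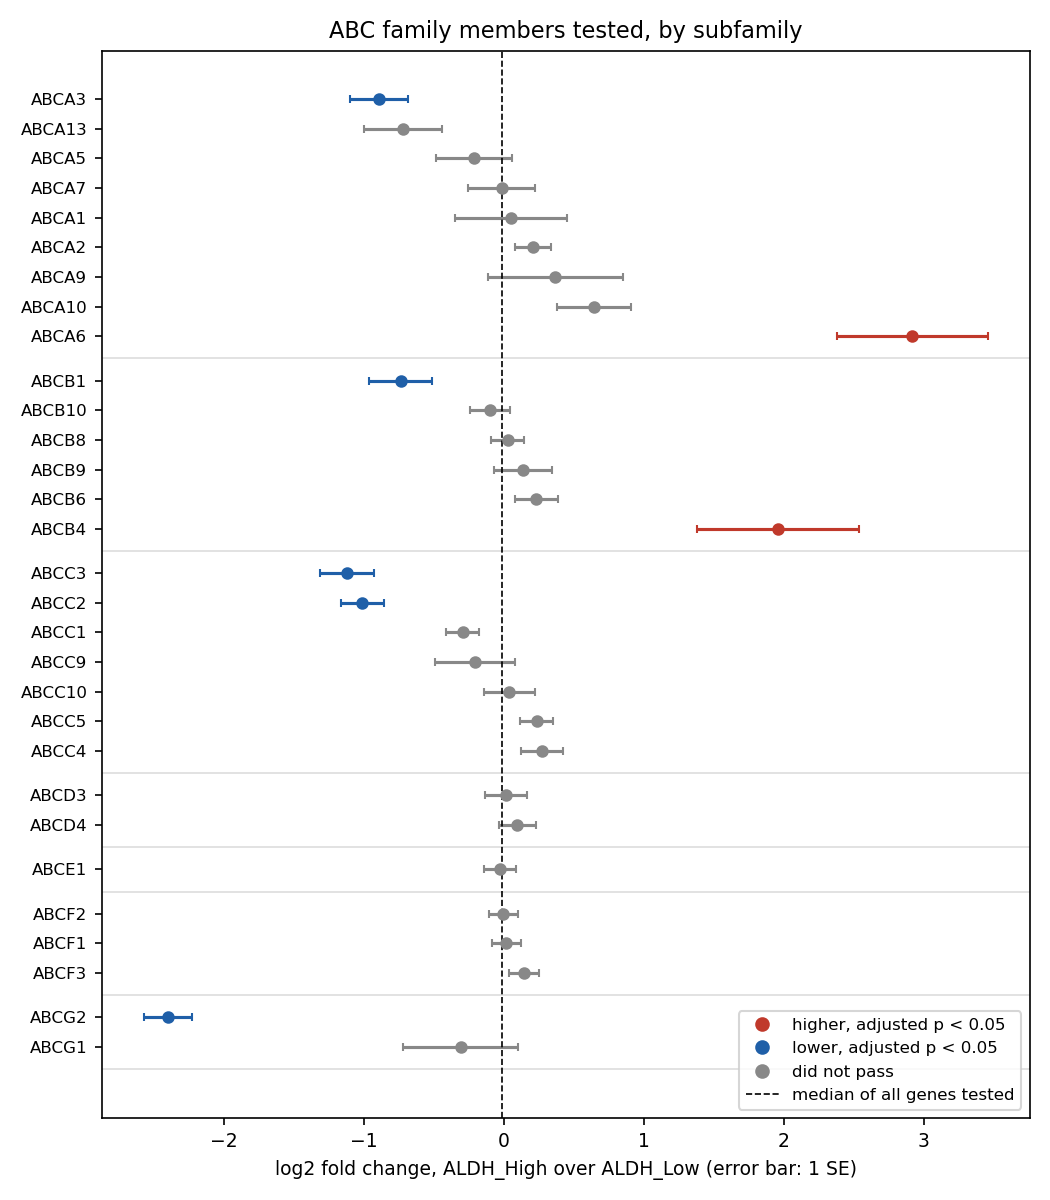
Log2 fold change (ALDH_High over ALDH_Low, x axis) of 30 tested ABC members, with bars of 1 standard error, grouped by subfamily A to G from top to bottom. ABCG2 lies farthest to the left at -2.40 and ABCA6 farthest to the right at 2.92, while the members of subfamilies D, E and F drawn lie between -0.029 and 0.14.

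ABCG2, also known as breast cancer resistance protein, exports drugs, dyes and urate, and its pumping of Hoechst dye defines the side population in flow cytometry. It lies on chromosome 4, 88090150 to 88231628 (GRCh38). ABCG2 had 3.98, 5.82 and 5.22 CPM in ALDH_High and 28.3, 25.8 and 25.5 CPM in ALDH_Low. All 3 ALDH_High libraries were far below all 3 ALDH_Low libraries, and the libraries within each group lay close together. ABCG2 was 5.28-fold lower in ALDH_High (log2 fold change -2.40, SE 0.17, edgeR adjusted p 1.32e-05). An exact two-sided permutation test over the libraries gave p = 0.1, the smallest possible for 3 against 3. On the TPM scale, which corrects for transcript length, ABCG2 went from rank 15 of the 45 members in ALDH_Low (12.8 ± 1.04 TPM) to rank 22 in ALDH_High (2.52 ± 0.601 TPM; SD, n = 3). It made up 2.28% of the summed TPM of the family in ALDH_Low and 0.439% in ALDH_High.

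Of the other members of subfamily G, only ABCG1 could be tested. ABCG1 loads cholesterol onto high-density lipoprotein. It had 1.22, 0.926 and 0.528 CPM in ALDH_High and 1.50, 1.04 and 0.719 CPM in ALDH_Low, groups that overlapped (edgeR adjusted p 0.663, log2 fold change -0.31, SE 0.41). ABCG4, a brain sterol exporter, had at most 15 counts in a library. ABCG5 and ABCG8, which pair to send plant sterols out of gut and liver cells, had at most 3 and 0 counts. A count of 0 allows up to 3 counts, or 0.0778 to 0.118 CPM depending on the library, and these limits cover counting error only. ABCG2 made up most of the subfamily's TPM in every library. The summed TPM of the subfamily was 2.74, 3.70 and 3.31 in ALDH_High and 14.8, 13.4 and 12.2 in ALDH_Low.

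Subfamily C holds the multidrug resistance proteins, which export organic anions and conjugates with glutathione, glucuronate or sulfate. Of its 11 members, 7 were tested and 2 fell, ABCC2 and ABCC3. ABCC2, which sends bilirubin conjugates into bile (chromosome 10, 99782640 to 99852594), had 27.2, 22.5 and 26.9 CPM in ALDH_High. It had 62.4, 46.6 and 45.4 CPM in ALDH_Low. The groups were well separated, with ALDH_Low library 1 the highest. ABCC2 was 2.02-fold lower in ALDH_High (log2 fold change -1.01, SE 0.15, edgeR adjusted p 0.00118). ABCC3, a basolateral exporter of bile salts and glucuronides (chromosome 17, 50634777 to 50692253), had 8.01, 10.5 and 8.41 CPM in ALDH_High and 22.9, 20.9 and 14.8 CPM in ALDH_Low. Its groups did not overlap, and ALDH_Low library 3 lay nearest to ALDH_High. ABCC3 was 2.17-fold lower (log2 fold change -1.12, SE 0.20, edgeR adjusted p 0.00269).

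ABCC1, the broad glutathione-conjugate exporter first found in drug-resistant lung cancer cells, had the highest TPM of the subfamily, at 14.5 ± 1.03 in ALDH_High and 17.2 ± 2.59 in ALDH_Low (SD, n = 3). It had 70.0, 72.8 and 67.9 CPM in ALDH_High and 85.8, 96.6 and 75.7 CPM in ALDH_Low. The groups did not overlap, but the difference was small and did not pass (log2 fold change -0.29, SE 0.12, edgeR adjusted p 0.115). ABCC4, which exports cyclic nucleotides and prostaglandins, had 38.9, 50.7 and 55.1 CPM in ALDH_High and 40.6, 44.0 and 35.3 CPM in ALDH_Low. Its groups overlapped (log2 fold change 0.27, SE 0.15, edgeR adjusted p 0.253), and only in the fit without ALDH_High library 1 did it pass (0.42, edgeR adjusted p 0.0365; 0.0365 to 0.545 over 15 alternatives). ABCC4 lies on chromosome 13, where the median log2 fold change was 0.37 over 177 protein-coding genes averaging 5 CPM or more. The part of the chromosome in its value was not tested.

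ABCC5, a nucleotide analogue exporter, had 31.0, 34.0 and 30.2 CPM in ALDH_High and 25.5, 28.1 and 27.4 CPM in ALDH_Low. These groups did not overlap either, and the difference did not pass (log2 fold change 0.23, SE 0.12, edgeR adjusted p 0.204). ABCC9, the sulfonylurea receptor subunit of KATP potassium channels, and ABCC10, a lysosomal and basolateral drug exporter, overlapped between groups with adjusted p of 0.672 and 0.910. ABCC6, ABCC8, ABCC11 and ABCC12 were too low for the test and never had more than 25 counts. ABCC6 has near-identical pseudogene copies, ABCC6P1 and ABCC6P2, with at most 10 and 7 counts, so its own count is uncertain.

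Subfamily B mixes plasma membrane pumps and lipid transporters with peptide and mitochondrial transporters. Of its 9 members, 7 were tested, and the pair of plasma membrane members among them, ABCB1 and ABCB4, moved in opposite directions. These close paralogs are neighbours on chromosome 7, on the same strand and 22581 bases apart. ABCB1, or P-glycoprotein, pumps many uncharged and cationic drugs (87503017 to 87713323). It had 2.48, 3.44 and 3.25 CPM in ALDH_High and 4.49, 5.29 and 5.61 CPM in ALDH_Low. ABCB1 was 1.67-fold lower in ALDH_High (log2 fold change -0.74, SE 0.23, edgeR adjusted p 0.0427). The groups did not overlap, but the call was close to the threshold and was lost whichever library was left out, with edgeR adjusted p from 0.0615 (without ALDH_Low library 1) to 0.133 (without ALDH_Low library 3). ABCB4, which flips phosphatidylcholine into bile (87401696 to 87480435), had 2.09, 2.32 and 1.29 CPM in ALDH_High and 0.104, 0.502 and 0.899 CPM in ALDH_Low. It was 3.89-fold higher in ALDH_High, from 44 to 80 counts against 4 to 25 (log2 fold change 1.96, SE 0.58, edgeR adjusted p 0.0371). The ALDH_Low libraries differed widely among themselves. The call was lost without ALDH_High library 1 (edgeR adjusted p 0.0605), ALDH_High library 2 (0.11), ALDH_Low library 1 (0.0552) or ALDH_Low library 2 (0.104). Leaving out ALDH_Low library 1 lowered the log2 fold change of ABCB4 to 1.45, and leaving out ALDH_Low library 3 raised it to 2.69.

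The other tested members of subfamily B work inside the cell, and their groups overlapped. ABCB6, ABCB8 and ABCB10 serve haem and mitochondrial transport, and ABCB9 moves peptides into lysosomes. The log2 fold changes of these 4 lay between -0.098 and 0.23, with edgeR adjusted p of 0.339 or more. Over all 6 libraries ABCB8 had the highest mean TPM of the subfamily, with 31.0 ± 1.42 in ALDH_High and 29.4 ± 1.37 in ALDH_Low (SD, n = 3). ABCB9 was close to it, at 31.8 ± 8.0 and 28.3 ± 4.22 TPM, and stood above it in ALDH_High. ABCB8 had 50.6, 43.1 and 40.7 CPM in ALDH_High and 44.6, 43.9 and 43.3 CPM in ALDH_Low, with a log2 fold change of 0.027 (SE 0.12). ABCB9 had 57.2 CPM in ALDH_High library 1 against 34.5 and 33.1 CPM in libraries 2 and 3, and 43.4, 34.8 and 35.1 CPM in ALDH_Low, so that library 1 was the highest in both groups. ABCB5, described as a marker of slow-cycling melanoma cells, had at most 8 counts in any library, and ABCB11, the bile salt export pump, at most 1.

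**Figure D2:**
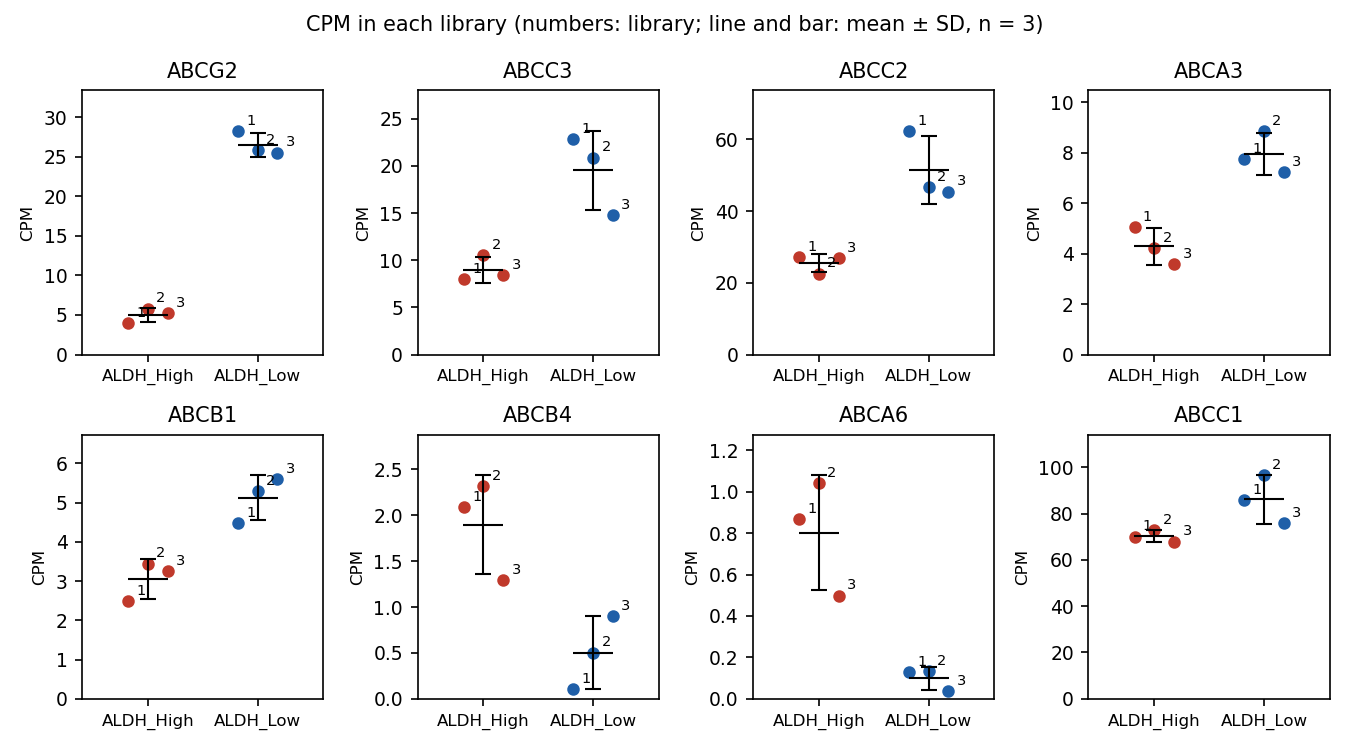
CPM on a linear axis (y) in each of the 3 ALDH_High (red) and 3 ALDH_Low (blue) libraries for the 7 members past the threshold and for ABCC1, numbered by library, with the mean and SD in black. The groups do not overlap in any of the 8 panels, and the gap is widest relative to the spread for ABCG2 (at most 5.82 against at least 25.5 CPM).

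Promoter windows from RefSeq (GRCh38.p14), from 250 bases before to 50 after a start, were matched by symbol for 35 of the 45 members, ABCC3 and ABCB4 not among them. They are shown for ABCG2, ABCC2 and ABCB1, the members of subfamilies B, C and G that fell and were matched. ABCC3 also fell but was not matched. The windows set side by side what these promoters hold, each at the start nearest to the main annotated transcript. RefSeq has 5 such windows for ABCG2 and 2 for ABCB1, and the counts do not tell the starts apart. Capitals mark matches, on either strand, to the aryl hydrocarbon receptor core GCGTG, the antioxidant element core TGACNNNGC, the M-box core CATGTG, the E-box CACGTG, the GC box GGGCGG and the TATA box TATAAA.
ABCG2, chr4:88158590-88158889, minus strand: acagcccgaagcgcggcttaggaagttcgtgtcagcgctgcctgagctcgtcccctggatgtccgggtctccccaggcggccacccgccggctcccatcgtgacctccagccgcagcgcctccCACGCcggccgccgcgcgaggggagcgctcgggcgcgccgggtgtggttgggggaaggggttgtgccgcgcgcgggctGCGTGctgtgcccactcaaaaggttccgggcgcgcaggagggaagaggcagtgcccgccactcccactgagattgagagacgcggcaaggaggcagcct
ABCC2, chr10:99782390-99782689, plus strand: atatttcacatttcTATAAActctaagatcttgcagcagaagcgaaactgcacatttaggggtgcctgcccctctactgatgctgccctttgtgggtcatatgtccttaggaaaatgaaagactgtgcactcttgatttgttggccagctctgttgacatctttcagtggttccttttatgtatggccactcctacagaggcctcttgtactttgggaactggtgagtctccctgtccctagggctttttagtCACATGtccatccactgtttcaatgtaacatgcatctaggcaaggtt
ABCB1, chr7:87600835-87601134, minus strand: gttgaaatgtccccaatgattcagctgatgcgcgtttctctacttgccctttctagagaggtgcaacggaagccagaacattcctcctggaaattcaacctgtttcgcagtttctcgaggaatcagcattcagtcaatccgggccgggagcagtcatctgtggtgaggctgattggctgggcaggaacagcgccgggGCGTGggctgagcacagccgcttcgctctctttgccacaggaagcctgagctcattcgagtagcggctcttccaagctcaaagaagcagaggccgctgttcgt
The ABCG2 window is rich in G and C (72.0%) and holds GCGTG 2 times, from bases 124 and 202 of the window. ABCB1 (55.3% G and C) holds it 1 time, from base 198. ABCC2 (45.0%) holds no GCGTG but a TATA box from base 15, far from the start, and an M-box core from base 254. None of these matches overlapped another. No motif was shared by all 3 windows. GCGTG stands in 36.5% of all 35116 promoter windows of this length, TATAAA in 11.5%, CATGTG in 11.1%, TGACNNNGC in 13.3%, CACGTG in 7.26% and GGGCGG in 45.0%. A match describes letters and not a bound site.

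Subfamily A moves lipids. Of its 12 members, 9 were tested, 1 fell and 1 rose. ABCA3, which fills lamellar bodies with surfactant phospholipid and sits in lysosome-like membranes (chromosome 16, 2275881 to 2340746), had 5.05, 4.23 and 3.58 CPM in ALDH_High. It had 7.73, 8.87 and 7.23 CPM in ALDH_Low. ABCA3 was 1.86-fold lower in ALDH_High, without overlap (log2 fold change -0.89, SE 0.20, edgeR adjusted p 0.0117). Leaving out ALDH_High library 3 gave it an edgeR adjusted p of 0.0522, and leaving out ALDH_Low library 2 gave 0.0510.

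ABCA6 and ABCA10 belong to a row of related genes on chromosome 17 in the order ABCA8, ABCA9, ABCA6, ABCA10 and ABCA5, all on the minus strand. ABCA6, a cholesterol-responsive member expressed in several tissues (69078702 to 69141895), had 0.868, 1.04 and 0.498 CPM in ALDH_High and 0.130, 0.134 and 0.0359 CPM in ALDH_Low. These are 17 to 36 counts against 1 to 5, a low level. ABCA6 entered the test through its ALDH_High libraries alone, so it could hardly be tested without a difference. The fitted log2 fold change of ABCA6 was 2.92 (SE 0.54, edgeR adjusted p 0.00371), or 7.55-fold higher in ALDH_High. ABCA10 had 6.67, 12.9 and 14.5 CPM in ALDH_High and 7.08, 6.83 and 7.91 CPM in ALDH_Low. ALDH_High library 1 of ABCA10 lay below the 3 ALDH_Low libraries and the other two above them, and the difference did not pass (log2 fold change 0.64, SE 0.26, edgeR adjusted p 0.118). Without that library it was 0.93 (edgeR adjusted p 0.00297; 0.00297 to 0.422 over 15 alternatives). ABCA10 overlaps the end of ABCA5 on the same strand, so reads there could belong to either. ABCA5 and ABCA9 of the same row had log2 fold changes of -0.22 and 0.37 (edgeR adjusted p 0.640 and 0.658), and ABCA8 was too low to be tested.

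The sterol and phospholipid exporter ABCA1 had 6.23, 3.15 and 4.69 CPM in ALDH_High and 7.65, 2.78 and 3.02 CPM in ALDH_Low. The ALDH_Low libraries of ABCA1 spanned the whole ALDH_High range (log2 fold change 0.051, SE 0.40, edgeR adjusted p 0.950). ABCA2, a lysosomal sterol and lipid transporter, had the highest TPM of the subfamily, at 18.1 ± 2.71 in ALDH_High and 15.1 ± 1.16 in ALDH_Low (SD, n = 3). Its CPM were 48.0, 58.2 and 47.7 in ALDH_High and 44.6, 39.7 and 49.0 in ALDH_Low, which overlapped (log2 fold change 0.21, SE 0.13, edgeR adjusted p 0.319). ABCA13, a very large and little-studied member, had 1.58, 2.66 and 1.76 CPM in ALDH_High and 3.84, 3.08 and 2.98 CPM in ALDH_Low. Its groups did not overlap and it did not pass (log2 fold change -0.72, SE 0.28, edgeR adjusted p 0.101). ABCA7, a phospholipid transporter, had a log2 fold change of -0.017 and an edgeR adjusted p of 0.974. ABCA4, the retinal retinoid flippase, and ABCA12, the skin lipid transporter, were too low for the test, at 26 and 25 counts or fewer in each library.

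Subfamily D carries very long chain fatty acids and other acyl-CoAs into peroxisomes, apart from ABCD4, which passes vitamin B12 out of lysosomes. None of its 3 tested members passed. ABCD3, the main peroxisomal membrane transporter, had 31.7, 23.2 and 31.5 CPM in ALDH_High and 29.4, 26.0 and 30.1 CPM in ALDH_Low, overlapping throughout (log2 fold change 0.016, SE 0.15, edgeR adjusted p 0.959). ABCD4 had a log2 fold change of 0.096 (edgeR adjusted p 0.669). ABCD2 had at most 3 counts.

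Subfamilies E and F held the most abundant members. ABCE1 splits ribosomes after translation ends, and it was first by TPM in both groups. Its TPM was 99.8 ± 15.1 in ALDH_High and 98.1 ± 10.3 in ALDH_Low (SD, n = 3). ABCE1 had 149, 182 and 160 CPM in ALDH_High and 166, 180 and 155 CPM in ALDH_Low, overlapping fully (log2 fold change -0.029, SE 0.12, edgeR adjusted p 0.898). ABCF1, which binds initiation factor eIF2 and ribosomes, was next at 82.8 ± 8.31 and 78.8 ± 4.36 TPM. It had 174, 189 and 183 CPM in ALDH_High and 166, 184 and 190 CPM in ALDH_Low, again overlapping (log2 fold change 0.017, SE 0.10, edgeR adjusted p 0.934). ABCF2, a close relative of ABCF1, followed at 80.1 ± 7.67 and 77.4 ± 6.69 TPM (log2 fold change -0.0032, edgeR adjusted p 0.988). The TPM ranges of ABCF1 and ABCF2 overlapped in both groups. ABCE1 overlapped with ABCF1 in ALDH_High and lay above it in ALDH_Low (at least 87.3 against at most 82.5 TPM). ABCF3 stood lower, at 27.0 ± 1.76 and 23.6 ± 0.637 TPM; its groups did not overlap in CPM, but it did not pass (log2 fold change 0.14, edgeR adjusted p 0.409). Subfamilies E and F made up 17.5% and 33.3% of the family's summed TPM in ALDH_High and 17.4% and 32.1% in ALDH_Low. Subfamily G made up 0.569 ± 0.0521% and 2.40 ± 0.180% (SD, n = 3). The summed TPM of the whole family lay between 529 and 595 in the 6 libraries, and the ranges of the groups overlapped.

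**Figure D3:**
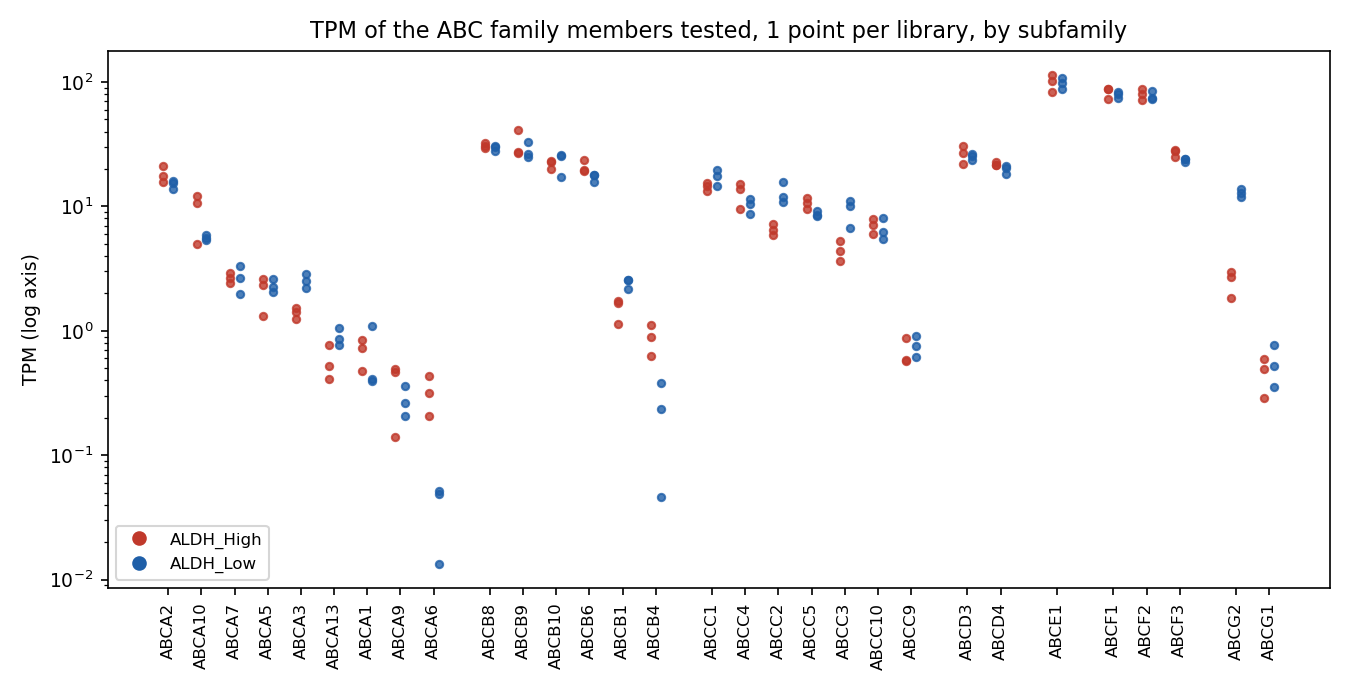
TPM on a log axis (y) of 30 tested members, 1 point per library (ALDH_High red, ALDH_Low blue), grouped by subfamily A to G from left to right and ordered by mean TPM within it. ABCE1, ABCF1 and ABCF2 stand between 72.1 and 113 TPM in every library, and ABCG2 falls from between 11.8 and 13.9 TPM in ALDH_Low to between 1.84 and 2.98 TPM in ALDH_High.

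The 7 calls differed in how far they rested on single libraries. ABCG2, ABCC2 and ABCC3 passed in all 6 fits that left out 1 library. ABCA6 passed in all 6 as well, but it entered the test through its ALDH_High libraries alone, which favours such an outcome. ABCA3 passed in 4 of them, ABCB4 in 2 and ABCB1 in 0 (edgeR; its unadjusted p with all libraries was 0.00831, and DESeq2 gave it an adjusted p of 0.0302). Without ALDH_High library 1, 3 members were higher (ABCA6, ABCA10 and ABCC4) and 5 lower, ABCA3, ABCC2, ABCC3 and ABCG2 among them, of 32. The median log2 fold changes of chromosomes 4, 7, 10, 16 and 17, which carry the 7 genes, lay between -0.035 and 0.057. Over all genes tested, edgeR called 23.7% without ALDH_High library 1, 14.4% without ALDH_High library 2, 15.6% without ALDH_High library 3, and 15.8%, 14.0% and 14.2% without ALDH_Low library 1, 2 or 3. With all libraries it called 21.0% with upper-quartile factors, 12.9% without a low-count filter, 20.0% with at least 10 counts in every library and 22.0% with the replicate number as a block. An adjusted p below 0.01 called 11.3%, and a log2 fold change of 1 or more in size on top of 0.05 called 11.5%. DESeq2 called 19.5%, and limma on log2 TPM called 16.1% with a pseudocount of 1, 16.2% with 0.1 and 5.76% without a TPM filter. Upper-quartile factors gave 2 higher and 5 lower members of 32. For the other fits, members called are given with the processing alternatives, some as ranges or for higher or lower members only. Within 500 kb of ABCG2, 10 other genes were tested, of which 2 were lower and 0 higher, beside 9.83% lower among all genes tested. The median log2 fold change of these 10 was -0.56, and the part of the region in the ABCG2 value was not tested. For the other members called, the medians within 500 kb were -0.053 (ABCC2), 0.21 (ABCC3), -0.040 (ABCA3), 0.050 (ABCB1), -0.12 (ABCB4) and 0.28 (ABCA6). Those of the tested members not called lay between -0.51 (ABCG1) and 0.42 (ABCC4). ABCB9, ABCC10 and ABCE1 overlap well-counted genes on the other strand (ARL6IP4, DLK2 and OTUD4), and the counting is not stated to use strand, so their values are uncertain to that extent. ABCB1 overlaps RUNDC3B, which had at most 12 counts.

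**Figure D4:**
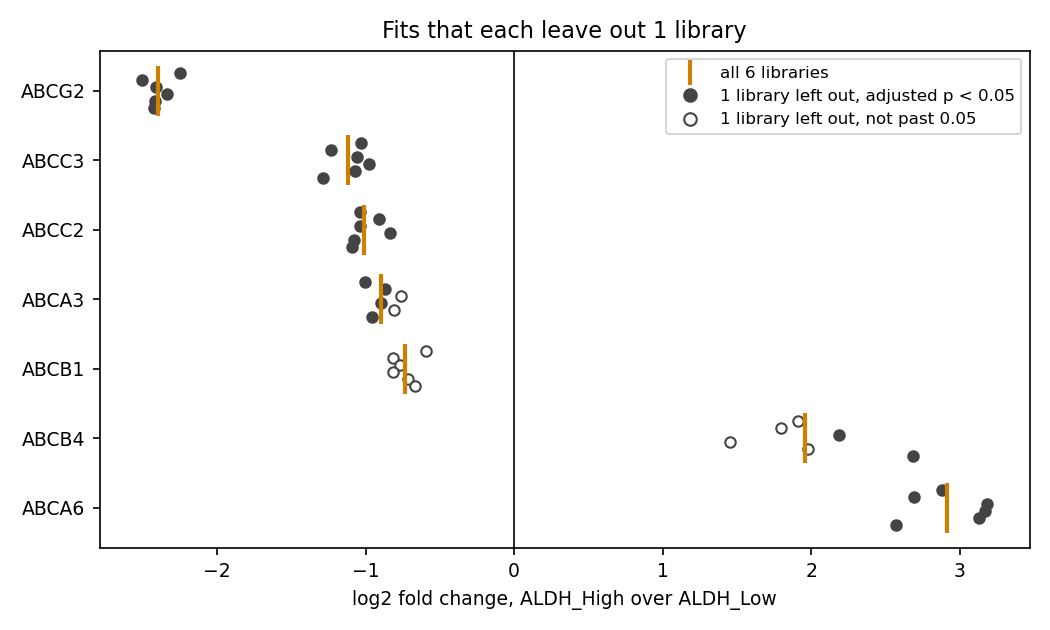
Log2 fold change (ALDH_High over ALDH_Low, x axis) of the 7 members past the threshold, with all libraries (orange bar) and with each library left out in turn (circles, filled where the edgeR adjusted p was below 0.05). ABCG2 stays between -2.50 and -2.25 with all circles filled, while all circles of ABCB1 are open.

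Genes that work with the ABC family were taken from lists of 62 genes in all, of which 48 were tested, 5 were higher and 10 lower in ALDH_High, beside 10.8% higher and 9.83% lower among all genes tested. Among regulators of sterol efflux, 2 of 12 were higher and 3 lower. NR1H3, a liver X receptor that turns on ABCA1 and ABCG1, had 13.7, 9.09 and 7.80 CPM in ALDH_High and 27.6, 21.1 and 19.3 CPM in ALDH_Low. Its groups were well apart and it fell (log2 fold change -1.16, SE 0.22, edgeR adjusted p 0.00482), while the same test did not call ABCA1 or ABCG1. NR1H2, also a liver X receptor, had higher means, 90.5 CPM in ALDH_High and 99.6 CPM in ALDH_Low. Its groups overlapped and it did not pass (log2 fold change -0.14, SE 0.14, edgeR adjusted p 0.544). NPC1 and NPC2, which hand cholesterol out of lysosomes, were lower (log2 fold changes -0.38 and -0.73). SREBF2, the activator of cholesterol synthesis genes, and MYLIP, which degrades the LDL receptor, were higher (0.44 and 0.53). The calls of NPC1, NPC2, SREBF2 and MYLIP passed in 1, 5, 3 and 2 of the 6 fits that left out 1 library.

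Of 9 tested xenobiotic sensors and pump regulators, only PPARG, a fatty acid sensor, passed, and it was lower (-0.63, edgeR adjusted p 0.0219; passing in 3 of 6 fits without 1 library). AHR, which can induce ABCG2, had a log2 fold change of -0.069 (SE 0.29) and did not pass (edgeR adjusted p 0.903). Its ALDH_Low libraries spread widely, at 91.8, 63.4 and 31.6 CPM, against 58.5, 54.9 and 65.0 CPM in ALDH_High. NFE2L2, which can induce ABCC2 and ABCC3, had a log2 fold change of 0.15 (SE 0.15) and did not pass (edgeR adjusted p 0.530). The xenobiotic receptors NR1I2 and NR1I3 had at most 1 and 2 counts in a library.

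Among partners of single subfamilies, LMBRD1, which works with ABCD4 in vitamin B12 release, was higher (0.72, edgeR adjusted p 0.0158). FECH, the last enzyme of haem synthesis, which associates with mitochondrial ABC transporters, was lower (-0.58, edgeR adjusted p 0.0116). FECH and NPC1 lie on chromosome 18, whose median log2 fold change was -0.22, and the part of the chromosome in their values was not tested. PELO, which rescues stalled ribosomes with ABCE1, was lower (-0.58, edgeR adjusted p 0.00515). EIF2AK4, the kinase that senses uncharged tRNA, was higher (0.53, edgeR adjusted p 0.0137). The calls of LMBRD1, FECH and EIF2AK4 passed in 4, 5 and 4 of the 6 fits that left out 1 library, and that of PELO in all 6. KCNJ8, the pore subunit that joins ABCC9 in a KATP channel, had 0.513, 0.203 and 0.352 CPM in ALDH_High and 1.37, 1.91 and 2.59 CPM in ALDH_Low. KCNJ8 fell by 2.47 on the log2 scale (SE 0.42, edgeR adjusted p 0.00239), while ABCC9 did not pass.

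The organic anion and cation carriers of the SLC family move many of the same substrates across membranes. Of 8 tested, 1 was higher and 3 were lower. That number is too small to read against the shares of all genes (10.8% higher and 9.83% lower). SLCO1B3, an uptake carrier best known from liver, had 0.158, 0.174 and 0.0586 CPM in ALDH_High and 3.16, 1.97 and 2.26 CPM in ALDH_Low. Its groups did not overlap and its level was low (log2 fold change -4.23, SE 0.44, edgeR adjusted p 0.000125). The counts do not tell its transcripts apart. SLCO1B3 entered the test through its ALDH_Low libraries alone, so it could hardly enter without a difference. SLC22A5, the carnitine carrier, and SLCO3A1, an anion carrier, were lower (-0.85 and -0.42), the call of SLCO3A1 holding in 1 of 6 fits without 1 library. SLC47A1, an exporter of organic cations, had 12.1, 10.5 and 7.83 CPM in ALDH_High and 3.58, 1.87 and 2.73 CPM in ALDH_Low. It was 3.70-fold higher (log2 fold change 1.89, SE 0.27, edgeR adjusted p 0.000888). Of the ABC proteins with other names, TAP1 and TAP2, the peptide transporter of antigen presentation, had log2 fold changes of -0.20 and -0.41 (edgeR adjusted p 0.529 and 0.0525).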

How the data were processed

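RNA of 6 libraries, 3 per group, was sequenced from TruSeq stranded mRNA libraries, per the labels' protocols. FastQC 0.11.3, STAR 2.5.1b, HTSeq 0.6.1, DESeq2 and GRCh38 are named in the submitters' processing notes, without roles. The deposited counts are estimated counts rounded to whole numbers, as read from the values: between 133 and 177 genes per library have a count of 0 beside a TPM above 0. The authors also deposited TPM values, which sum to the same total in every library; the gene lengths behind them are not given in the sources used here. The 261 genes listed by identifier without a symbol stayed in.

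Counts were filtered with filterByExpr, normalised by TMM, and compared in edgeR 4.0.16 (glmQLFit, glmQLFTest, two-sided; Benjamini-Hochberg over all genes; threshold 0.05), with group as the only term and all 6 libraries. Each standard error is the size of the fold change over the root of F. CPM values use TMM-scaled library sizes. The alternatives were other scaling factors, other filters, a replicate block, each library left out, the DESeq2 1.42.0 Wald test and limma 3.58.1 on log2(TPM + 1) or log2(TPM + 0.1). The edgeR step was tested on simulated data. No pair of libraries agreed to within sampling noise (chi-square per degree of freedom of at least 12.1). Positions come from GENCODE 44.

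Values in every library are given for members past the threshold, for the member with the highest TPM of each subfamily, and for ABCB1, ABCC1 and ABCG2. ABCA1, ABCA10, ABCA13, ABCB9, ABCC4, ABCC5 and ABCG1 were added after their values were seen. Some tested members are in the counts but are not reported here by name. The members and lists were chosen with earlier results of these data known.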

Additional observations from a re-analysis of the deposited data

How the results depend on the processing

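ABCG2 and ABCC2 passed in all 15 alternative fits, with log2 fold changes from -2.50 to -1.99 and from -1.09 to -0.84. ABCC3 missed the threshold in 1 (limma without a TPM filter, -0.91, adjusted p 0.0695). ABCB1 missed it in 10 of 15. ABCA3, ABCB4 and ABCA6 missed it in 5, 5 and 1 of the fits that could test them.

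The 2 higher members became 5 without a low-count filter (ABCA10, ABCA12 and ABCC6 added; among the 5 lower members ABCA4 took the place of ABCB1) and 0 of 29 with at least 10 counts in every library, where edgeR did not test ABCA6 and ABCB4 and 1 member had an unadjusted p under 0.05. In limma on TPM there were 0 (pseudocount 1), 0 (0.1) and 0 (no TPM filter) higher members, against 2 in DESeq2. These limma fits had 0, 0 and 4 at an unadjusted p under 0.05. With the TPM filter (a mean of at least 1 TPM), limma could not test ABCA6 or ABCB4, whose means were 0.179 and 0.550 TPM. Neither could be called there. An adjusted p below 0.01 left 1 higher member. The 5 lower members became 3, 3 and 2 in the 3 limma fits. They became 3 below 0.01 and 3 where a log2 fold change of 1 in size was also required. Among partner genes, 5 higher became 2 in limma without a TPM filter, 1 below 0.01 and 1 with the fold limit; 10 lower became 5, 5 and 4 in limma, 5 below 0.01 and 3 with the fold limit. Stricter limits give fewer calls by construction. The cause of the other limma differences was not tested. Leaving out 1 library gave 1 to 3 higher and 3 to 5 lower members, and 1 to 4 higher and 7 to 12 lower partner genes. The lowest counts of members came without ALDH_High library 2 (1 higher), and without ALDH_High library 3 or ALDH_Low library 2 (3 lower each); those of higher partner genes came without ALDH_Low library 2 (1) and ALDH_Low library 3 (3).

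The replicate number as a block gave 2 higher and 5 lower members and 6 and 11 partner genes, and changed no call among the members. Equal numbers correlated at 0.15, 0.076 and 0.11, so they were not taken as pairs.

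Small log2 fold changes that did not pass changed sign. Upper-quartile factors gave -0.022 for ABCB8, -0.034 for ABCD3, -0.032 for ABCF1 and -0.00085 for ABCA1. Limma gave 0.019 for ABCE1 with either pseudocount, and 0.019 without a TPM filter. Leaving out 1 library gave -0.051 to 0.11 for ABCB8, -0.046 to 0.17 for ABCD3, -0.097 to 0.053 for ABCE1, -0.025 to 0.066 for ABCF1, -0.20 to 0.70 for ABCA1 and -0.57 to 0.020 for ABCG1.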

Other observations

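CFTR, the chloride channel of the ABC family that the naming rule leaves out, had 0 counts in all 3 ALDH_High libraries and 48, 0 and 25 counts in ALDH_Low libraries 1, 2 and 3. It was too low to be tested, and ALDH_Low library 2 lay with the ALDH_High libraries. ABCC6, linked to calcification of elastic tissue, had 25, 8 and 13 counts in ALDH_High and 1, 7 and 1 in ALDH_Low, and ABCA12 had 12, 7 and 25 against 9, 1 and 1. ABCA4 had 0, 3 and 1 counts in ALDH_High and 5, 26 and 2 in ALDH_Low, with ALDH_Low library 2 far above the others. ABCG4 had 14, 10 and 15 counts in ALDH_High and 5, 7 and 2 in ALDH_Low, without overlap. It was too low to be tested, and the groups did not overlap in 37.8% of all genes tested.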
